A study of Mus musculus with 6 samples.

Results

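Deep cortical layer neuron markers were followed here as 8 genes, Bcl11b, Fezf2, Tle4, Foxp2, Tbr1, Rprm, Etv1 and Nxph4, which were taken by symbol from the 21006 Ensembl mouse genes of the data. All 8 were found, each under 1 identifier. The tissue was prefrontal cortex, the front part of the cerebral cortex, from 6 wild type male C57BL/6 mice aged 18 months by their age label, although the sample titles carry a different age code. The PND group (n = 3), a model of postoperative neurocognitive disorder, breathed 1.5% isoflurane for 30 min and then had an exploratory laparotomy of 30 min under isoflurane, in which the abdomen was opened and its organs inspected. The CON group (n = 3) had no anesthesia and no operation at that stage. Mice of both groups were trained in fear conditioning beforehand, went through an open field, memory tests and a Barnes maze, and were killed under isoflurane with saline perfusion, per the study's methods, so the controls were neither naive to testing nor free of isoflurane at the end. Each sample was a piece of tissue with all its cell types, so fewer neurons of a layer and less RNA per neuron cannot be told apart.

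The cerebral cortex is built of layers, and the excitatory neurons of the deep layers send their axons out of the cortex. Layer 5 holds neurons that project to the brainstem, spinal cord and striatum, and layer 6 holds neurons that project to the thalamus. Their identities are set during development by transcription factors that act on one another, and several of these factors stay on in the adult brain, where they are used as markers. Fezf2 and Bcl11b (also called Ctip2) are zinc finger factors of subcortically projecting neurons of layer 5. Etv1 (also called Er81) is an ETS factor of layer 5. Tbr1 is a T-box factor of layer 6, Foxp2 is a forkhead factor of layer 6, and Tle4 is a Groucho-type corepressor of corticothalamic neurons. Rprm encodes Reprimo, a protein known from cell cycle arrest, and Nxph4 encodes a neurexophilin, a secreted ligand of neurexins. Bcl11b and Foxp2 are not particular to cortex, since the projection neurons of the striatum also express both.

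The level of a gene is given as FPKM, which relates the fragments sequenced from a gene to the length of its exons and to the depth of the library and allows levels of different genes to be compared. Depth was not given and was estimated from the steps of the lowest values at 7217250 to 9392930 fragments per sample. At this depth the members other than Nxph4 rested on 42.9 to 1544 estimated fragments per sample. The tissue label was checked against marker genes, of which 7 are named as examples chosen with their values known. Slc17a7, the vesicular glutamate transporter of cortical excitatory neurons, averaged 43.6 FPKM, and the deep layer markers Pcp4 (74.5 FPKM) and Hs3st4 (15.6 FPKM) were plainly present. Emx1, a factor of cortical excitatory neurons, averaged only 0.249 FPKM, and Ntsr1, a layer 6 marker, only 0.415 FPKM. Markers of striatal neurons were present too, with 102.5 FPKM for Penk, which encodes enkephalin, and 9.35 FPKM for the dopamine receptor gene Drd2. The summed level of the 15 striatal markers ranged from 264 to 325 FPKM in PND and from 175 to 403 FPKM in CON, and none of them was at 0 in all samples. CON replicate 2 gave the lowest sum and CON replicate 3 the highest. Pcp4 was also lowest in CON replicate 2, at 46.5 FPKM, but it was highest in CON replicate 1, at 96.8 FPKM. Whether part of the Pcp4 level came from striatal neurons was not tested, so its level is not evidence for deep layers alone. Samples also differed in the level of GC-rich genes. In the 10% of genes with the highest GC content, the median deviation from the mean of each gene ran from -0.56 in CON replicate 1 to 0.49 in CON replicate 2 on the log2 scale. The part of striatal RNA and of GC content in the results below was not tested beyond the values given beside them.

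Promoters are shown for Bcl11b, Fezf2 and Tle4, which take part in the 2 relations between members that passed the adjustment (below), and for Tbr1, the one window with a motif match among those shown. Of the 8 members, 6 had an entry in the RefSeq promoter sequences of build GRCm38.p6, namely Rprm, Tbr1, Etv1, Bcl11b, Fezf2 and Tle4, and these 6 had 8 windows. Each window is the 250 bases before a transcription start, printed 5′ to 3′ on the strand of the gene. The Bcl11b and Fezf2 windows are printed only up to the first base that GENCODE annotates as untranslated region, which leaves 62 and 156 bases. Capitals mark TAATTA, a core of homeodomain sites that reads the same on both strands, and this motif was added after the sequences had been seen.
Bcl11b, chr12:108003603-108003664, minus strand: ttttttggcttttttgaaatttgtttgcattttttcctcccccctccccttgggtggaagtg
Fezf2, chr14:12345960-12346115, minus strand: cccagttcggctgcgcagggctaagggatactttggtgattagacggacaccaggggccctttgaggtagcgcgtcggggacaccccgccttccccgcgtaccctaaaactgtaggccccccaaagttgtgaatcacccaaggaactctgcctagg
Tbr1, chr2:61804203-61804452, plus strand: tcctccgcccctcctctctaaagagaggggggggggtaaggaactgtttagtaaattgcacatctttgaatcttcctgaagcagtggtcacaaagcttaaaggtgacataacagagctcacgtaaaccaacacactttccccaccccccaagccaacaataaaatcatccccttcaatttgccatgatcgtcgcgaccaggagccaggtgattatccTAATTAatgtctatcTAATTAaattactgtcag
Tle4, chr19:14598184-14598433, minus strand: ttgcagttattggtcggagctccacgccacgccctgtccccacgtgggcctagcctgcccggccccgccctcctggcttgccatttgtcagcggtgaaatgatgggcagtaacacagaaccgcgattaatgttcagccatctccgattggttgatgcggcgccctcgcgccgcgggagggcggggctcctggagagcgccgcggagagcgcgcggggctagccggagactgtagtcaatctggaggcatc

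The windows differed in base composition. GC content was 61.2% for the whole Fezf2 window and 65.2% for the Tle4 window shown, against 45.2% for Tbr1 and 44.8% for the whole Bcl11b window. The median over all 32851 promoters of the same length was 52.4%, with quartiles at 45.2% and 61.2%. TAATTA was found in the Tbr1 window, in 2 places, and in none of the other 7 windows of the members, while 4.84% of all promoters hold it. Core letters of 3 factor families to which members belong were searched on both strands, and none of the 8 windows held any of them. They were AGGTGT for T-box factors, present in 11.8% of all promoters, GTAAACA for forkhead factors, present in 3.17%, and CCGGAA for ETS factors, present in 12.0%. TATAAA, found in 12.4% of all promoters, occurred in 1 of the 8 windows, the second window of Etv1. None of the 5 motifs contains another. These matches describe letters and not bound sites.

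All 8 members had a mean of at least 0.1 FPKM over the 6 samples and were tested. None passed the study's cut-off of an absolute log2 fold change above 1 with an unadjusted p below 0.05, which 1.33% of the 18185 genes tested passed (241 genes). None had an unadjusted p below 0.05, against 3.13% of all genes (569 genes). In none did the 3 PND values all lie above or all below the 3 CON values, against 7.66% of all genes (1393 genes). PND was compared with CON in limma on log2(FPKM + 0.1), a scale that understates changes of low genes, with p-values adjusted after Benjamini and Hochberg over all genes. The adjusted p of limma was 0.9999 for each of the 8 members, and over all genes it was below 0.05 for 2. The fitted difference was above 0 for 4 members and below 0 for 4, with a median of -0.01 beside 0.01 over all genes tested. Each sample came from a separate animal, so the p-values measure the spread between these 6 animals.

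Layer 5 is described first. Etv1 (chr12:38779380-38870484 on GRCm38, GENCODE M21) had the least variable level of the 8, with a coefficient of variation of 8.61% over the 6 samples. Its levels were 4.88, 5.57 and 4.85 FPKM in PND and 5.61, 5.89 and 4.92 FPKM in CON. The PND value of replicate 2 lay within the CON range while the other two lay just below it. The difference PND minus CON was -0.10 (SE 0.14) on the log2 scale (95% interval -0.44 to 0.24), that is between 0.739-fold and 1.18-fold. Etv1 transcripts share a stretch of at least 75 bases with Ap1s3 and Gm5454, so some of its reads may have been divided between genes.

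Bcl11b (chr12:107910403-108003602) was among the 2 most abundant members. Its levels were 19.3, 22.3 and 20.3 FPKM in PND and 16.8, 14.6 and 22.4 FPKM in CON. The PND samples lay close together near the top of the CON range, and the spread came from the controls (SD 1.54 FPKM in PND and 4.04 FPKM in CON). The difference was 0.22 (SE 0.17, 95% interval -0.18 to 0.62), which was within the spread between animals, and it was 0.083 without CON replicate 2 and 0.39 without CON replicate 3. The interval reaches from 0.884-fold to 1.53-fold.

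Fezf2 (chr14:12342094-12348189) was measured at 5.15, 4.34 and 5.27 FPKM in PND and at 4.46, 6.82 and 4.47 FPKM in CON. A single animal, CON replicate 2, stood above the other 5, which lay between 4.34 and 5.27 FPKM. The difference was -0.07 (SE 0.20, 95% interval -0.55 to 0.41).

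Tle4, Foxp2, Tbr1 and Rprm represent layer 6. Tle4 (chr19:14448150-14598051) was measured at 10.9, 11.9 and 10.1 FPKM in PND and at 11.8, 8.83 and 11.6 FPKM in CON. CON replicate 2 was the lowest animal for Tle4, as it was the highest for Fezf2. The difference was 0.04 (SE 0.15, 95% interval -0.32 to 0.39).

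Foxp2 (chr6:14901349-15441977) was measured at 3.18, 3.69 and 3.51 FPKM in PND and at 3.16, 2.30 and 4.10 FPKM in CON. As for Bcl11b, the PND samples lay inside the CON range, which ran from CON replicate 2 up to CON replicate 3. The difference was 0.15 (SE 0.23, 95% interval -0.39 to 0.68). Foxp2 shares a stretch of at least 75 bases with Gm46378.

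Tbr1 (chr2:61802930-61814114) was the most variable of the 7 well measured members, with a coefficient of variation of 24.1%. Its levels were 20.95, 11.4 and 22.8 FPKM in PND and 19.1, 24.9 and 17.9 FPKM in CON. The variation rested on PND replicate 2, which lay below all other animals. The difference was -0.21 (SE 0.27, 95% interval -0.85 to 0.42), and without PND replicate 2 it was 0.10.

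Rprm (chr2:54084093-54085552), the shortest member with 1460 exon bases, was measured at 3.56, 4.42 and 5.54 FPKM in PND and at 3.93, 5.30 and 5.33 FPKM in CON. Both groups covered nearly the same range. The difference was -0.11 (SE 0.21, 95% interval -0.61 to 0.39), and it rested on 42.9 to 76.0 fragments per sample.

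Nxph4 (chr10:127525473-127534559) was near the limit of detection. Its levels were 0, 0.0755 and 0.382 FPKM in PND and 0.159, 0.146 and 0 FPKM in CON, which correspond to about 0, 1 and 6 fragments and 2, 2 and 0 fragments. In 5 of the 6 samples it lay at or under 3 fragments, the number that a count of 0 allows, which is 0.191 to 0.248 FPKM for this gene. Its fitted difference of 0.13 had a 95% interval of -1.52 to 1.79, so neither a rise nor a fall beyond 2-fold was excluded by these data. For the other 7 members the whole interval lay between -1 and 1, inside the fold change of the study's cut-off. The limit of 3 fragments covers counting error only, while the 95% intervals are those of limma and measure the spread between animals.

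**Figure D1:**
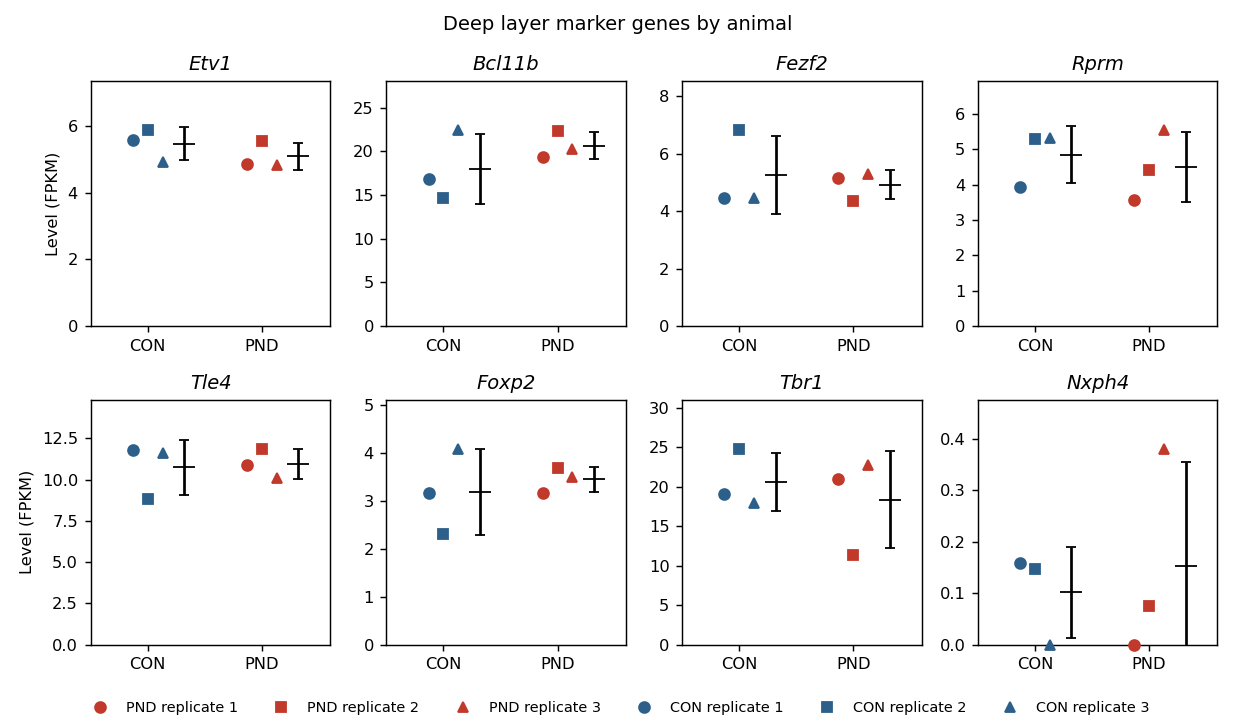
FPKM (vertical axes, from 0) of the 8 genes in each CON and PND animal, with the mean and SD of the 3 animals of a group as a black bar (the lower SD of Nxph4 in PND passes below 0). The groups overlap for every gene, PND replicate 2 is low for Tbr1 at 11.4 FPKM, and CON replicate 2 is high for Fezf2 at 6.82 FPKM.

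By mean level over the 6 samples the order was Tbr1 (19.5 FPKM), Bcl11b (19.3), Tle4 (10.9), Etv1 (5.29), Fezf2 (5.08), Rprm (4.68), Foxp2 (3.32) and Nxph4 (0.127). Tbr1 and Bcl11b did not differ beyond their spread, since Tbr1 was higher in 4 of 6 animals. Etv1, Fezf2 and Rprm were likewise not separable, each being higher than the next in 3 of 6 animals. Rprm exceeded Foxp2 in 6 of 6 animals although their ranges overlapped. The steps from Bcl11b to Tle4, from Tle4 to Etv1 and from Foxp2 to Nxph4 had no overlap of ranges.

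The other genes of the deep layers did not pass the test either. Of 14 other layer 5 markers, 13 were measured and tested, none passed the cut-off or had an unadjusted p below 0.05, and the median difference was 0.12. Crym, which encodes a thyroid hormone binding protein, went from 8.40 ± 1.22 FPKM in CON to 10.01 ± 0.710 FPKM in PND (SD, n = 3), a difference of 0.26 (SE 0.15). Deptor, an inhibitor of mTOR signalling, averaged 4.68 ± 0.131 FPKM in PND against 5.71 ± 1.08 FPKM in CON (difference -0.27, SE 0.17). Its groups did not overlap, which held for 1 of the 13 genes and for 7.66% of all genes tested. Pcp4 and Parm1, the most abundant of the list, differed by 0.20 (SE 0.27) and -0.03 (SE 0.14).

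Of the 14 other markers of layers 6 and 6b, all were tested, none passed the cut-off or had an unadjusted p below 0.05, and the median was 0.05. Nr4a2, an orphan nuclear receptor of layer 6b and claustrum, averaged 5.13 ± 0.978 FPKM in PND against 6.67 ± 1.71 FPKM in CON (difference -0.36, SE 0.23). Svil differed by 0.22 (SE 0.19). Hs3st4, a heparan sulfate sulfotransferase and an abundant layer 6 marker, was at 16.2 ± 0.972 FPKM in PND and 14.9 ± 0.937 FPKM in CON, and the kainate receptor gene Grik3 was at 13.2 ± 2.44 and 13.3 ± 2.50 FPKM.

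Of the projection neuron fate regulators, factors that act with or against the members in development, 11 were examined. None of the 11 passed the cut-off or had an unadjusted p below 0.05, 3 were above and 8 below 0, and the median difference was -0.09. Neurod2, a basic helix-loop-helix factor of excitatory neurons, averaged 5.55 ± 0.660 FPKM in PND against 6.62 ± 1.68 FPKM in CON (difference -0.23, SE 0.20). Nr2f1, an orphan nuclear receptor that patterns cortical areas, differed by -0.19 (SE 0.19). Neurod6 and Zeb2, the most abundant of the list, differed by -0.12 (SE 0.13) and -0.13 (SE 0.17).

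Upper layer markers (14 genes), excitatory neuron markers (10 genes) and pan-neuronal markers (10 genes) also held no gene past the cut-off and none with an unadjusted p below 0.05, and their medians were 0.003, -0.001 and -0.01. Of the 15 striatal neuron markers 14 had a fitted difference above 0, as did 52.4% of all genes tested, with a median of 0.15. None passed the cut-off, 1 had an unadjusted p below 0.05, and the summed levels overlapped between the groups as given above. The count rested on single animals, since 6 of 15 lay above 0 without CON replicate 2 (median -0.14), 10 of 15 without CON replicate 1 and 11 of 15 without PND replicate 3. The 1 marker was the phosphodiesterase gene Pde10a, which was picked with its values known and averaged 13.1 ± 2.73 FPKM in PND against 8.52 ± 2.21 FPKM in CON (difference 0.62, SE 0.23). Its unadjusted p stayed below 0.05 in 2 of 6 fits with an animal left out, those without PND replicate 3 and without CON replicate 3, and in 9 of 13 alternatives with all samples, and its difference ranged from 0.50 to 0.83 with an animal left out.

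**Figure D2:**
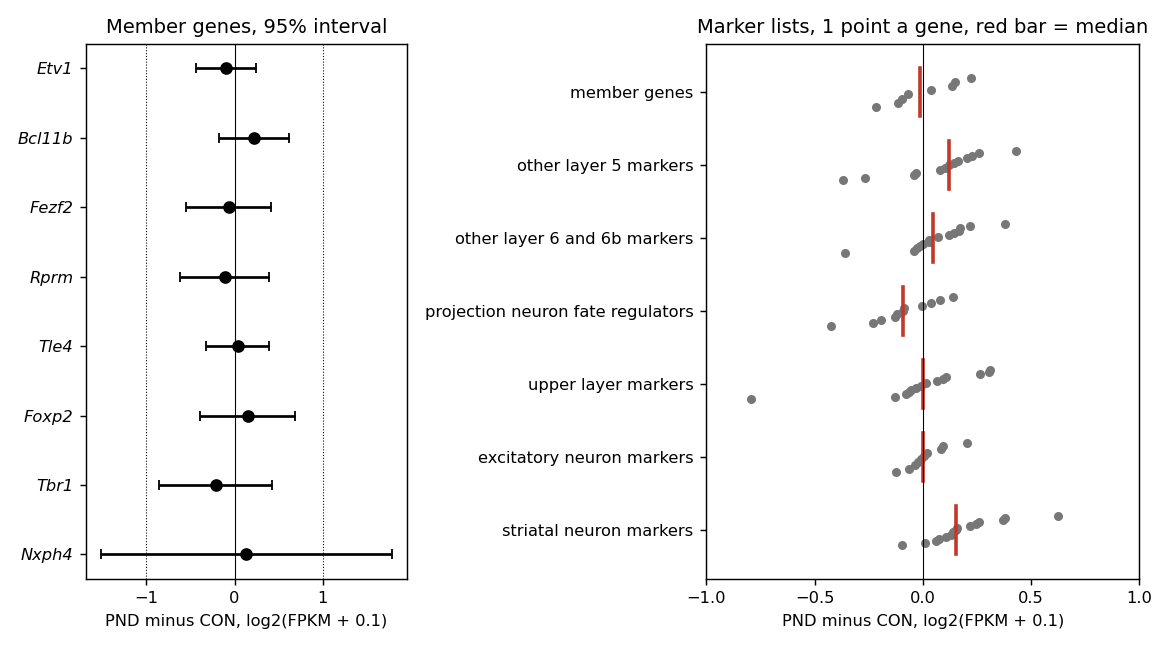
Differences PND minus CON on the log2(FPKM + 0.1) scale (horizontal axes), on the left for the 8 members as the fitted value with its 95% interval, on the right for 7 marker lists with 1 point a gene and a red bar at the median. Dotted lines mark the fold change of the cut-off at -1 and 1, which no point passes, and the members lie between -0.21 and 0.22.

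Since the groups overlapped for every member, the variation between animals was described with relations among the 7 members that lay above 3 fragments in all samples. Over the 6 samples 42 relations were computed, 21 between pairs of members and 21 of a member with the mean striatal marker level, the mean excitatory marker level or the GC measure (the median deviation of the 10% of genes richest in GC). They were chosen after the values had been seen, which the adjustment of their p-values does not cover. Of the 21 pairs 9 had a positive and 12 a negative Pearson r. With 6 samples these signs are uncertain. Some changed after a correction for GC content, as for Tle4 with Rprm (r -0.47 before and 0.59 after). By Pearson r, 2 of the 42 relations had an adjusted p below 0.05 in an exact permutation test over the 720 orders of the samples, two-sided, and by Spearman rho none had.

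Bcl11b and Foxp2 varied together across the animals. Their Pearson r was 0.95 (exact permutation p = 0.00139, the smallest the design can give, adjusted p = 0.0292) and their Spearman rho 1 (exact permutation p = 0.00278, adjusted p = 0.0583). In the deviation from each gene's mean, CON replicate 2 was lowest in both at -0.38 and -0.49, and CON replicate 3 was highest in both at 0.23 and 0.32. Without the 2 animals farthest from the median, CON replicates 2 and 3, r was 0.89, after centring within groups it was 0.96, and after a correction for GC content it was 0.89.

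The same animals stood at the ends of the striatal marker level, where CON replicate 2 was at -0.51 and CON replicate 3 at 0.41. Bcl11b followed this level with r = 0.86 (exact permutation p = 0.0292, adjusted p = 0.163, and rho 0.94, exact permutation p = 0.0167, adjusted p = 0.0700) and Foxp2 with r = 0.90 (exact permutation p = 0.0125, adjusted p = 0.105, and rho 0.94, exact permutation p = 0.0167, adjusted p = 0.0700). Without the 2 animals at the ends r was 0.53 and 0.54, and without CON replicate 2 alone it was 0.68 and 0.78. Centred within groups r was 0.86 and 0.89, and after the GC correction it was 0.90 and 0.91. Neither relation passed the adjustment. Etv1 ran the other way, with r = -0.83 (exact permutation p = 0.0361, adjusted p = 0.163, and rho -0.71, exact permutation p = 0.136, adjusted p = 0.381), and -0.68 without those 2 animals.

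Fezf2 and Tle4 ran in opposite directions. Their r was -0.98 (exact permutation p = 0.00139, adjusted p = 0.0292) and their rho -1 (exact permutation p = 0.00278, adjusted p = 0.0583). CON replicate 2 had the highest Fezf2 at 0.43 and the lowest Tle4 at -0.29. Without the 2 animals farthest from the median, PND replicate 3 and CON replicate 2, r was -0.99, and without CON replicate 2 alone it was -0.94.

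These 2 genes also ran in opposite directions against the GC measure. The longest Fezf2 transcript has 55.9% GC and the longest Tle4 transcript 47.5%. With the GC measure Fezf2 had r = 0.84 (exact permutation p = 0.0319, adjusted p = 0.163, and rho 0.94, exact permutation p = 0.0167, adjusted p = 0.0700) and Tle4 r = -0.88 (exact permutation p = 0.0167, adjusted p = 0.117, and rho -0.94, exact permutation p = 0.0167, adjusted p = 0.0700), and without CON replicates 1 and 2 these were 0.91 and -0.96. After the GC correction the r between Fezf2 and Tle4 was 0.03. The opposition of the 2 genes was not seen after this correction, and its cause was not tested.

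Fezf2 followed the mean of the excitatory neuron markers with r = 0.97 (exact permutation p = 0.00694, adjusted p = 0.0729, and rho 0.94, exact permutation p = 0.0167, adjusted p = 0.0700), and 0.34 after the GC correction. Tle4 opposed it with r = -0.98 (exact permutation p = 0.00417, adjusted p = 0.0583, and rho -0.94, exact permutation p = 0.0167, adjusted p = 0.0700), and -0.87 after the correction. Without CON replicates 1 and 2 these were 0.99 and -0.97. The corrected r with the excitatory markers was not particular to Tle4. It was -0.90 for Bcl11b, -0.85 for Foxp2, -0.57 for Rprm, 0.44 for Tbr1 and 0.86 for Etv1. Tbr1 and Fezf2 had r = 0.74 (exact permutation p = 0.117, adjusted p = 0.306, and rho 0.94, exact permutation p = 0.0167, adjusted p = 0.0700), 0.94 without PND replicate 2 and CON replicate 2, and 0.16 after the GC correction. Fezf2 and Foxp2 had r = -0.86 (exact permutation p = 0.0389, adjusted p = 0.163, and rho -0.49, exact permutation p = 0.356, adjusted p = 0.649). Their r was -0.22 without CON replicates 2 and 3, and -0.75 after the GC correction. Of the 42 relations 10 had an unadjusted p below 0.05 by Pearson r, this one among them.

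**Figure D3:**
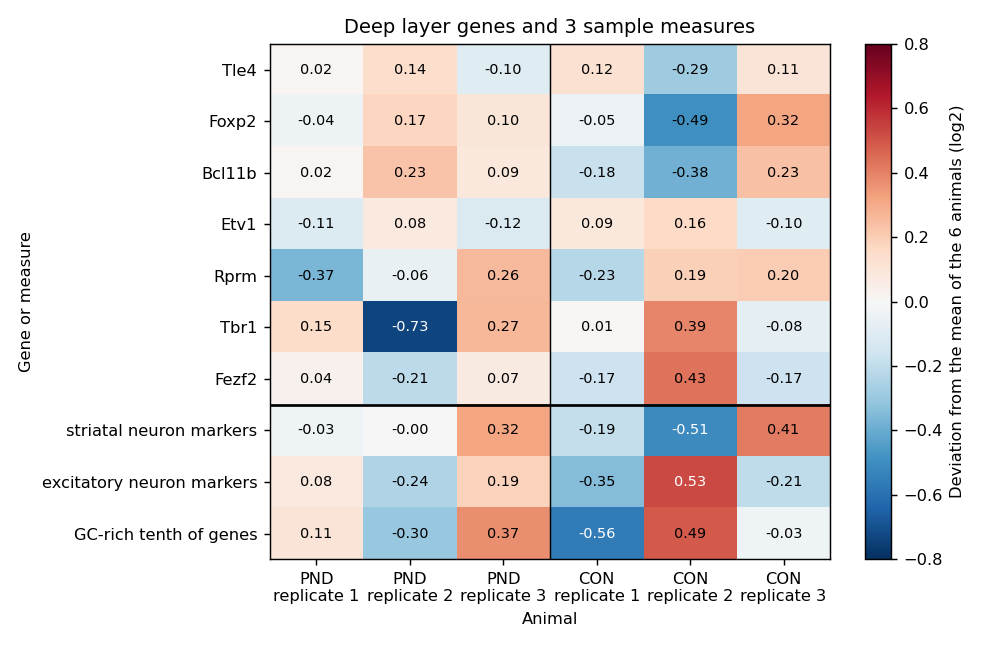
Deviation of 7 deep layer genes, of 2 marker lists and of the 10% of genes richest in GC from their mean over the 6 animals (rows) in each animal (columns), as a color and a printed value on the log2 scale. CON replicate 2 is at -0.49 for Foxp2 and 0.43 for Fezf2, and the upper and lower members change sign between animals of the same group.

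**Figure D4:**
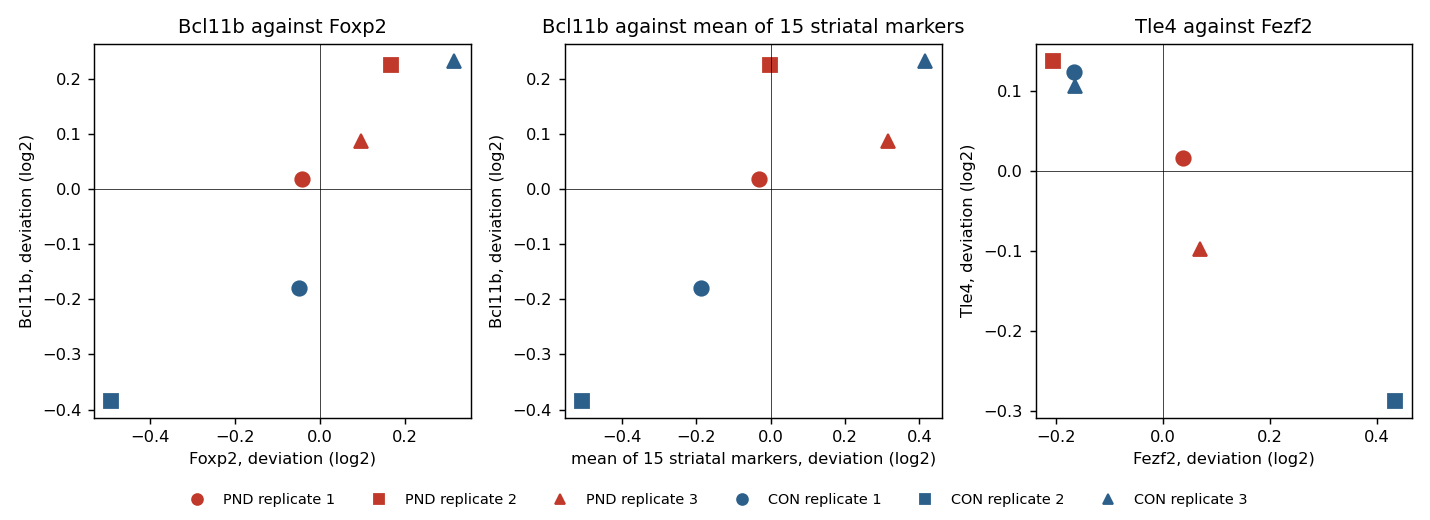
Deviation (log2) of Bcl11b against Foxp2, of Bcl11b against the mean of 15 striatal markers and of Tle4 against Fezf2, with 1 point an animal, red for PND and blue for CON. The rising and falling lines of points have r of 0.95, 0.86 and -0.98, and CON replicate 2 lies at an end of each.

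For each of the 7 members, genes with the most similar profile over the 6 samples were sought among 12316 other genes with a symbol and a mean of at least 1 FPKM. The genes were picked for the highest r, so these are descriptions with no test. The closest genes were B3gnt2, A930024N18Rik and Gm44250 for Bcl11b (r from 0.975 to 0.985), Htr4, Gm37006 and Pde3a for Foxp2 (0.988 to 0.989) and Ptprm, Gm44567 and Gm37716 for Etv1 (0.970 to 0.983). For Fezf2 they were Btbd9, Gm4737 and Lin7b (0.993 to 0.996), for Tle4 Gm43589, Gm26606 and Cetn2 (0.991 to 0.998), for Tbr1 Hm629797 and Sez6l (both 0.99) and for Rprm Rps6kb2, Wdr92 and Hspbap1 (0.981 to 0.995). The number of genes with r of at least 0.95 was 91 for Fezf2 and 80 for Tle4, and 10 for Bcl11b and 11 for Etv1. The mean profile of all 8 members was closest to Armcx2, Zfp512 and Galnt13 (0.964 to 0.973). This mean includes Nxph4, at 0 to 6 fragments, whose deviations (-0.96 to 1.31) were the widest of the members. How far the closest genes follow its counting error was not tested. No member was among the closest genes of another because the members were left out of this search.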

How the data were processed

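Prefrontal cortex RNA of 3 PND and 3 CON mice was depleted of ribosomal RNA and sequenced on an Illumina HiSeq instrument. According to the study's methods, reads were filtered with Seqtk, aligned with HISAT2, counted with StringTie, scaled by TMM and converted to FPKM, and the FPKM deposited by the authors, 1 value per gene and sample, were used as they stood. The submitters' processing notes name Bowtie 0.12.2, mm8 and mm9 without a role. The genome build, annotation and use of strand for these values were not given in the sources used here, so reads of overlapping or near-identical genes may have been divided in an unknown way.

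Identifiers were matched to symbols and coordinates in GENCODE M21 on GRCm38 (20866 of 21006 matched), and 2 listed genes, Lratd2 and Smim32, were not matched. Effective depth was estimated from the steps of FPKM times exon length at low levels. In each sample 39.1% to 44.6% of low values lay within 0.05 of a whole fragment number, so fragment numbers are estimates. Mitochondrially encoded genes took 30.4% to 38.8% of the FPKM.

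Groups followed the treatment labels. The test was limma 3.58.1 under R 4.3.3 (lmFit and eBayes with an intensity trend, no covariate) on log2(FPKM + 0.1) over genes averaging 0.1 FPKM or more, after a check on simulated data. Correlations were computed with exact permutation (numpy 2.4.6) and adjusted after Benjamini and Hochberg over the 42 relations. The GC correction subtracted the median deviation in 40 bins of GC content from each sample. Without CON replicate 2, with the GC correction and centred within groups, relations were recomputed as alternatives chosen after seeing the data, as were the counts of striatal markers under each alternative. The alternatives for the comparison were another pseudocount, filter, normalization, intensity trend or test (voom on estimated fragments), the GC correction, the replicate number as a block, and leaving out each animal.

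The members and marker lists were chosen with earlier results of these data known. Genes outside the members were named by rule: those past the cut-off and, in the layer 5, layer 6 and fate regulator lists, the 2 with the smallest p and the 2 with the highest mean level. Other genes were named after their values were seen. A few items to which these rules would apply are not reported here.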

Additional observations from a re-analysis of the deposited data

How the results depend on the processing

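None of the 8 members passed the cut-off in any of 13 alternatives with all samples and 6 with an animal left out, and the median of the members stayed within -0.10 and 0.06. Among 150 recomputed member differences, 0 of 103 with all samples and 8 of 47 with an animal left out changed sign, and 1 had an unadjusted limma p below 0.05 (Bcl11b without CON replicate 3, at 0.39). With an animal left out the difference ranged from -0.27 to 0.042 for Rprm, -0.17 to 0.13 for Fezf2, -0.10 to 0.11 for Tle4, -0.40 to 0.10 for Tbr1, -0.059 to 0.34 for Foxp2 and -0.31 to 0.65 for Nxph4, which gave no value under a filter at 1 FPKM or without PND replicate 3. The directions of these 6 genes therefore depend on single animals. Bcl11b (0.083 to 0.39) and Etv1 (-0.17 to -0.044) kept their direction with each animal left out.

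Over all genes, 241 passed the cut-off, 25 when the pseudocount was 1, 59 under a filter at 1 FPKM, and 235 to 388 with an animal left out (388 without CON replicate 2). Quantile normalization gave 124 higher and 116 lower genes against 153 and 88. The shared replicate numbers did not pair the animals, since the correlations of same-numbered deviations were -0.05, -0.45 and 0.03, and with the replicate block 226 genes passed the cut-off, none of them a member. Depth limits Nxph4 most, at 0 to 6 fragments.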

Other observations

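Beyond the deep layers, markers of other cells in the same tissue differed between the groups in a few genes at an unadjusted p below 0.05, each with a limma adjusted p of 0.9999. Dlx1, a homeobox factor of interneurons, was the only gene past the cut-off among the 15 lists examined, at 0.149, 0.262 and 0.121 FPKM in PND and 1.79, 0.521 and 0.734 FPKM in CON (difference -1.87, SE 0.48). With a pseudocount of 1 the difference was -0.73 and no longer past the cut-off. All 3 PND animals lay below the CON animals, and the other 9 of the 10 interneuron markers had no unadjusted p below 0.05.

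The genes of this paragraph were singled out after their values were seen. Gfap, the intermediate filament of astrocytes, was at 21.8 ± 3.65 FPKM in PND and 13.6 ± 1.10 FPKM in CON (difference 0.66, SE 0.15), while Aqp4, the astrocyte water channel, was at 24.0 ± 2.14 and 30.8 ± 3.85 FPKM (difference -0.36, SE 0.13). P2ry12, a purinergic receptor of microglia, was at 5.49 ± 1.36 and 9.27 ± 1.50 FPKM (difference -0.76, SE 0.21). Values are means with SD (n = 3 throughout). With an animal left out the unadjusted p stayed below 0.05 in 6 of 6 fits for Gfap and P2ry12 and in 3 of 6 for Aqp4, and it was not below 0.05 for any of the 3 with levels centred on the excitatory neuron markers. Over the 13 alternatives with all samples, that centring included, the difference was 0.58 to 0.68 for Gfap, -0.78 to -0.67 for P2ry12 and -0.38 to -0.32 for Aqp4. Opalin, of oligodendrocytes, differed by -0.78 (SE 0.29), Prkcd, of the thalamus list, by 0.70 (SE 0.28) and Clic6, of the choroid plexus list, by 0.80 (SE 0.30). The groups did not overlap for Gfap, Aqp4, P2ry12, Prkcd and Clic6, as for 7.66% of all genes tested, and they overlapped for Opalin. With all samples the unadjusted p stayed below 0.05 in 11 of 13 alternatives for Opalin, 9 of 12 for Prkcd and 12 of 13 for Clic6. With an animal left out it stayed below 0.05 in 2 of 6 fits for each, while the difference ranged from -1.02 to -0.56 for Opalin, 0.55 to 0.79 for Prkcd and 0.57 to 1.06 for Clic6. No claustrum marker had an unadjusted p below 0.05 (5 tested, median 0.04). The medians of the astrocyte, oligodendrocyte and microglia lists were 0.03, -0.19 and 0.01, those of the interneuron and thalamus lists 0.10 and 0.24, and the choroid plexus list had 3 of 6 genes at or under 3 fragments in all samples and 2 tested (median 0.57).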
